A study of Homo sapiens with 6 samples.

Results

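The HSP70 and HSP110 chaperone genes described here are the 9 genes HSPA1A, HSPA1B, HSPA4, HSPA4L, HSPA8, HSPA9, HSPA13, HSPA14 and HSPH1, chosen by name, and all 9 were among the 25336 genes of the deposited count table. The RNA came from THP-1, an established human cell line of monocytic leukaemia (acute myeloid), with 3 libraries labelled pristimerin and 3 labelled control. The group names come from each library's description, while the library titles name no treatment. The direction of every difference below rests on those descriptions. Pristimerin is a plant triterpenoid with a quinone methide group. The series title is about ferroptosis, an iron-dependent cell death, set off by the compound erastin, but no library carries an erastin label. The labels give no dose, exposure time, vehicle, genotype, batch or date. The descriptions call the libraries of each group replicate biosamples. Whether these came from separate cultures is not said. Every p-value below therefore reflects the variation among these 6 libraries alone, and that variation may be technical. Library totals ran from 24323627 to 30568593 counts in pristimerin and from 19057219 to 27880414 counts in control. Libraries of the same group differed by more than counting noise (chi-square of 2.75 to 11.6 for each degree of freedom), and pristimerin replicate 2 was the farthest from the others of its group, so calls that change without a library are given with it.

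HSP70 proteins bind short hydrophobic stretches of unfolded proteins and release them in a cycle driven by ATP. J-domain proteins deliver clients and start ATP hydrolysis, and nucleotide exchange factors, among them the HSP110 proteins, which are distant relatives of HSP70, open the cycle again. The cytosolic inducible members are known targets of heat shock factor 1, which binds repeats of GAA and TTC called heat shock elements, whereas constitutive members carry everyday folding and import into organelles.

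Of the 9 genes, 6 were lower in pristimerin libraries, 2 were higher and HSPA4 was not called, in edgeR's quasi-likelihood test at an adjusted p under 0.05 over all genes tested. The same test called 15.1% of the 15305 tested genes lower and 14.5% higher. All 9 genes passed the filter on low counts, and the median log2 fold change over them was -0.31, beside -0.01 over all tested genes. HSPA1A and HSPA1B were called lower and were at least 2-fold lower, as were 2.55% of the tested genes. In 5 of the 9 genes every pristimerin library lay below every control library, as in 22.3% of the tested genes, and in 2 every pristimerin library lay above, as in 21.0%. Among the 10415 genes that averaged 5 CPM or more (CPM is the count scaled by the library's total), 18.0% were called lower and 16.0% higher in a fit of those genes alone, which also called 6 of the 9 lower and 2 higher. CPM values of the genes below also carry TMM factors, edgeR's correction for library composition. The count of 6 fell to 4 without pristimerin replicate 1 and to 4 without control replicate 3.

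**Figure D1:**
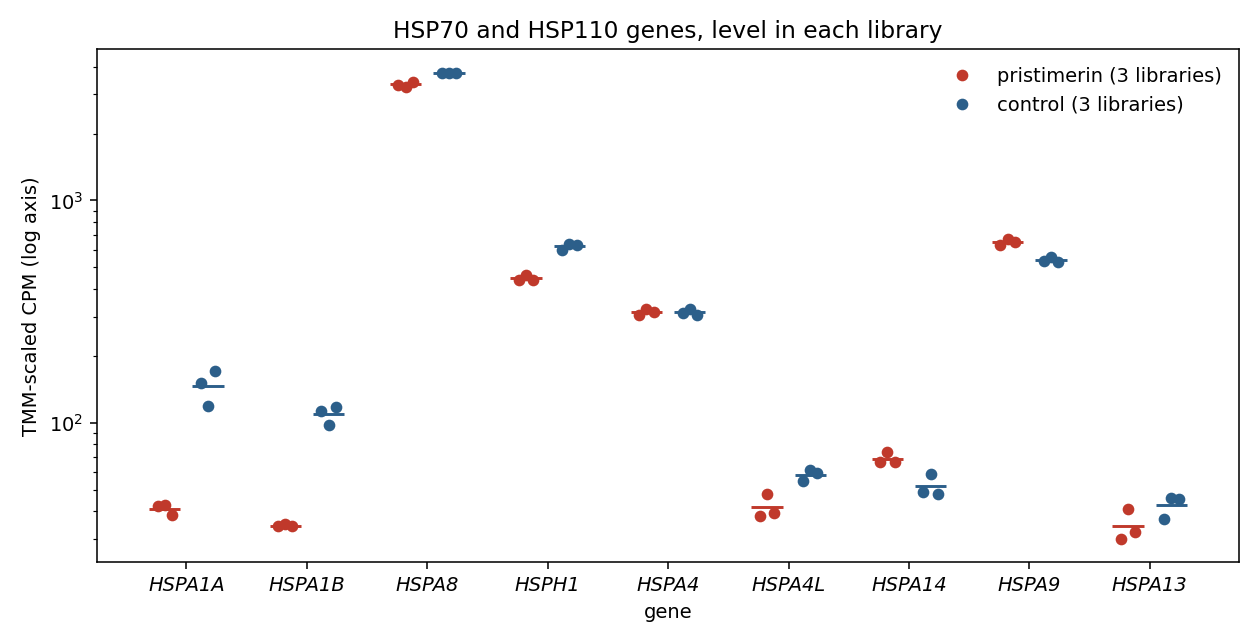
Level of each gene in TMM-scaled CPM on a log axis, with a point for each of the 3 pristimerin and 3 control libraries and a line at each mean. The pristimerin points of HSPA1A (38.4 to 42.6 CPM) lie well below the control points (118.8 to 171.1 CPM), while those of HSPA4 lie among the control points.

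The last 200 bases before the annotated starts of HSPA1A and HSPA1B are shown first, because these neighbouring genes had the lowest fold changes of the 9. They are written 5′ to 3′ on the plus strand, from RefSeq on GRCh38.p14, at chr6:31815343-31815542 for HSPA1A and chr6:31827538-31827737 for HSPA1B. Capitals mark 2 alternating heat shock element units, GAANNTTC or TTCNNGAA, where N is any base.
HSPA1A: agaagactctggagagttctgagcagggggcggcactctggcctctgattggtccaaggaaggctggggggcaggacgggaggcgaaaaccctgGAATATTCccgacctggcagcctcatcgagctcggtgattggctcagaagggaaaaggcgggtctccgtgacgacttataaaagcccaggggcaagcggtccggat
HSPA1B: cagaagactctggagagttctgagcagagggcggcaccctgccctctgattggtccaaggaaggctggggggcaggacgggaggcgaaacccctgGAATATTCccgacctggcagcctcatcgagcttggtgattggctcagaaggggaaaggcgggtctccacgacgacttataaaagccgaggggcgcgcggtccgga
Over the whole windows, which run from 250 bases before to 50 after the start, 277 aligned bases were identical and 22 differed (92.6% identity, with 2 gap bases). The capitals begin 106 bases before the HSPA1A start and 105 bases before the HSPA1B start. HSPA8, the most abundant of the 9 genes, is shown for contrast, since its window held the longer form with 3 alternating units at a pair of places. Its stretch is chr11:123062169-123062376, written on the minus strand, and capitals mark the 3-unit matches, GAANNTTCNNGAA on either strand.
HSPA8: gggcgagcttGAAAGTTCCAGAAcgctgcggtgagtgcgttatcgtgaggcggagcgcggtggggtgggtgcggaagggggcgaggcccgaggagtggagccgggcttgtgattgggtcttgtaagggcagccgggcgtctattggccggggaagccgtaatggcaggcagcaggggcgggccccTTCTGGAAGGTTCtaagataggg

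HSPA1A and HSPA1B encode the stress-inducible cytosolic HSP70 and stand side by side on hg38 chromosome 6, on the plus strand, 9791 bases apart. HSPA1A (ENSG00000204389, protein-coding, 31815543 to 31817946) measured 42.1, 42.6 and 38.4 CPM in pristimerin replicates 1, 2 and 3, against 151.6, 118.8 and 171.1 CPM in control replicates 1, 2 and 3. All 3 pristimerin libraries lay far below the lowest control library, which was replicate 2. The means were 41.0 ± 2.3 CPM in pristimerin and 147.2 ± 26.4 CPM in control (SD, n = 3 each), 72.1% lower. Its log2 fold change came to -1.84 (SE 0.10), at an edgeR adjusted p of 6.57e-10. HSPA1B (ENSG00000204388, protein-coding, 31827738 to 31830254) measured 34.2, 34.9 and 34.3 CPM in pristimerin replicates 1, 2 and 3, against 113.6, 98.2 and 117.9 CPM in control replicates 1, 2 and 3. Its pristimerin libraries were nearly level with each other and all under a low control replicate 2. The means were 34.5 ± 0.37 CPM in pristimerin and 109.9 ± 10.3 CPM in control (SD, n = 3 each), or -1.67 (SE 0.08) on the log2 scale at an edgeR adjusted p of 4.93e-11.

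How reads were divided between HSPA1A and HSPA1B is uncertain, since their transcripts share long identical stretches. In GENCODE 29 transcripts, 67.1% of the 150-base words of the HSPA1A transcript also occurred in HSPA1B, and 66.0% of those of HSPA1B occurred in HSPA1A, at the read length the labels give. The sum of both genes does not depend on that division, though reads left out for matching both, if any, are missing from it. It came to 76.4, 77.5 and 72.7 CPM in pristimerin libraries, against 265.2, 217.0 and 289.0 CPM in control libraries, 70.6% lower. The log2 fold change of the sum was -1.77 (SE 0.09), and it lay between -1.87 and -1.66 over the main and 16 alternative settings. The ratio of HSPA1A to HSPA1B in FPKM, which scales the count by gene length and library total, was 1.29, 1.28 and 1.17 in pristimerin and 1.40, 1.27 and 1.52 in control, and an exact two-sided permutation test of that ratio gave p = 0.30, where 3 against 3 libraries cannot go below 0.10.

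HSPA8 encodes the constitutive cytosolic HSP70, HSC70, which folds new proteins, uncoats clathrin vesicles and brings proteins to chaperone-mediated autophagy. The gene (ENSG00000109971, protein-coding, chromosome 11, 123057489 to 123063230, minus strand) measured 3316, 3245 and 3418 CPM in pristimerin replicates 1, 2 and 3, against 3752, 3734 and 3754 CPM in control replicates 1, 2 and 3. The groups did not overlap, and the mean was 11.2% lower in pristimerin libraries. Pristimerin over control gave -0.17 (SE 0.05) on the log2 scale, at an edgeR adjusted p of 0.017. This call did not hold without pristimerin replicate 1 (log2 fold change -0.17, adjusted p 0.075), without pristimerin replicate 2 (-0.15, adjusted p 0.059), without control replicate 1 (-0.17, adjusted p 0.0502) or without control replicate 3 (-0.15, adjusted p 0.072), all by edgeR's test.

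Of the 3 HSP110 genes, HSPH1 and HSPA4L were called lower and HSPA4 was not called. HSPH1, which encodes the heat-inducible HSP105, an exchange factor for cytosolic HSP70, lies on chromosome 13, 31134973 to 31162388, minus strand (ENSG00000120694, protein-coding). It measured 438.9, 463.6 and 438.7 CPM in pristimerin replicates 1, 2 and 3, against 596.9, 637.4 and 631.3 CPM in control replicates 1, 2 and 3. The highest pristimerin library was below the lowest control library, and the mean was 28.1% lower. The log2 fold change was -0.48 (SE 0.06), at an edgeR adjusted p of 8.90e-06. HSPA4L, which encodes a related HSP110 protein known as APG-1 and abundant in testis (ENSG00000164070, protein-coding, chromosome 4, 127781821 to 127840733, plus strand), measured 38.2, 47.8 and 39.4 CPM in pristimerin, against 54.7, 61.1 and 59.2 CPM in control. These groups did not overlap either, and pristimerin replicate 2 was the highest of its group. Its log2 fold change was -0.48 (SE 0.09), at an edgeR adjusted p of 4.48e-04.

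HSPA4, which encodes the constitutive HSP110 protein APG-2 (ENSG00000170606, protein-coding, chromosome 5, 133052013 to 133106449, plus strand), measured 305.8, 325.2 and 316.0 CPM in pristimerin, against 310.7, 325.7 and 306.6 CPM in control. The groups overlapped throughout. Its log2 fold change came to 0.01 (SE 0.06), at an edgeR adjusted p of 0.952, and it was negative under some other scalings and filters, down to -0.07. The ratio of HSPH1 to HSPA4, both in FPKM, was 0.868, 0.862 and 0.840 in pristimerin libraries, against 1.16, 1.18 and 1.25 in control libraries. The ratio was lower in every pristimerin library than in every control library. Its size, and which of the pair stands higher, rests on the gene lengths behind the deposited FPKM, while the difference between the groups does not, since the same lengths apply to every library. An exact two-sided permutation test of this ratio gave p = 0.10, the smallest that 3 against 3 libraries allow.

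The genes called higher were HSPA9 and HSPA14. HSPA9 encodes mortalin, the mitochondrial HSP70 that pulls imported proteins into the matrix (ENSG00000113013, protein-coding, chromosome 5, 138553756 to 138575675, minus strand). It measured 629.0, 669.8 and 653.0 CPM in pristimerin replicates 1, 2 and 3, against 536.3, 558.5 and 531.3 CPM in control replicates 1, 2 and 3. Every pristimerin library was above every control library, and the mean was 20.0% higher. Pristimerin over control gave 0.26 (SE 0.06) on the log2 scale, at an edgeR adjusted p of 0.0019. The share of all counts on genes of the mitochondrial genome was also higher. It was 5.11% to 5.35% in pristimerin libraries and 4.56% to 4.95% in control libraries. Its part in the HSPA9 difference was not tested.

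HSPA14 encodes a ribosome-associated HSP70-like protein that works with the J-domain protein DNAJC2 beside nascent chains (ENSG00000187522, protein-coding, chromosome 10, 14838306 to 14871741, plus strand). It measured 66.4, 73.6 and 66.3 CPM in pristimerin, against 48.9, 58.7 and 47.9 CPM in control. The groups did not overlap, with replicate 2 the highest library of both. The log2 fold change was 0.41 (SE 0.08), at an edgeR adjusted p of 0.0013. This value is uncertain, because the gene MSANTD7 (14838302 to 14846999) covers its first part on the same strand and held 79.2% as many CPM on average. In GENCODE 29 transcripts, 17.8% of the 150-base words of HSPA14 occurred in that gene too. MSANTD7 measured 50.6, 55.3 and 50.2 CPM in pristimerin, against 42.1, 46.0 and 41.9 CPM in control, a log2 fold change of 0.26 (SE 0.07) at an edgeR adjusted p of 0.012. DNAJC2, the J-domain partner, measured 74.3, 82.8 and 75.5 CPM in pristimerin, against 55.2, 61.0 and 50.8 CPM in control, with a log2 fold change of 0.48 (SE 0.08) and an edgeR adjusted p of 1.83e-04.

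HSPA13, which encodes the microsomal HSP70-like protein STCH (ENSG00000155304, protein-coding, chromosome 21, 14371115 to 14383484, minus strand), measured 30.0, 41.1 and 32.4 CPM in pristimerin, against 37.0, 45.8 and 45.2 CPM in control. Pristimerin replicate 2 stood above control replicate 1, so the groups overlapped. Its log2 fold change came to -0.31 (SE 0.11), at an edgeR adjusted p of 0.042. DESeq2 gave -0.29 with an adjusted p of 0.051, and limma on log2(FPKM + 1) gave -0.35 with an adjusted p of 0.073. The call was also lost in edgeR's test without pristimerin replicate 1 (-0.21), without pristimerin replicate 3 (-0.25), without control replicate 2 (-0.25) and without control replicate 3 (-0.25).

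**Figure D2:**
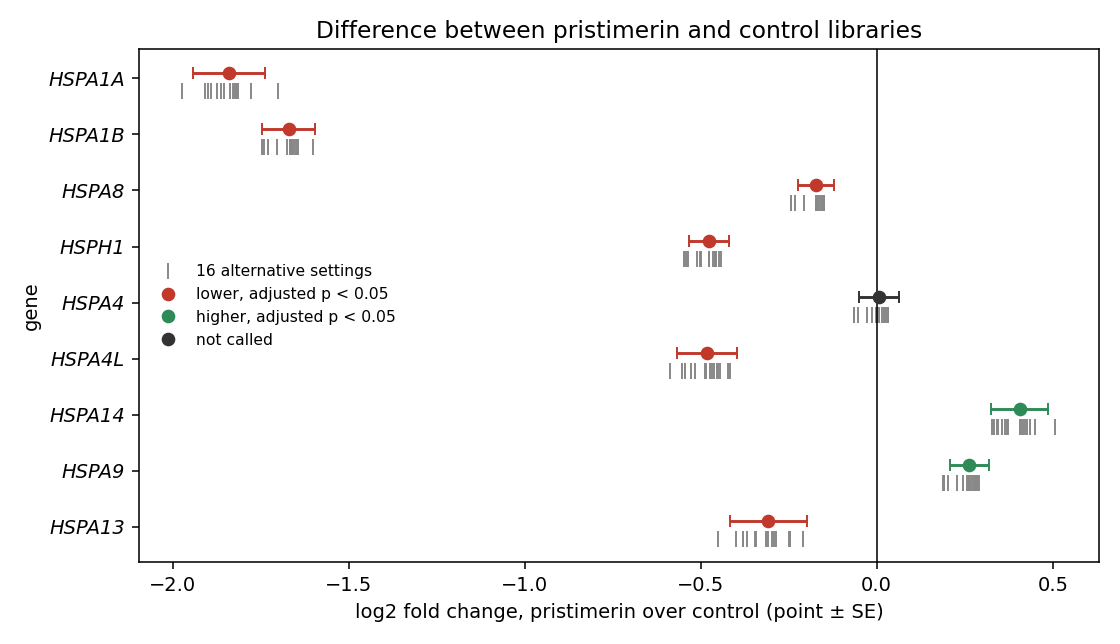
Log2 fold change of each gene, pristimerin over control, as a point with its SE and coloured by its call, above short ticks for the 16 alternative settings. The ticks of HSPA1A and HSPA1B stay at or below -1.60, those of HSPA4 lie on both sides of 0, and those of HSPA9 and HSPA14 stay above 0.

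Per length, HSPA8 dominated both groups. Levels in FPKM were 669 for HSPA8 in pristimerin libraries, followed by HSPA9 at 64.8, HSPA4 at 60.6, HSPH1 at 51.9, HSPA14 at 26.8, HSPA1A at 16.6, HSPA1B at 13.4, HSPA13 at 8.10 and HSPA4L at 3.56, and no neighbours in this order overlapped between libraries. In control libraries the order was HSPA8 at 791 FPKM, HSPH1 at 75.9, HSPA4 at 63.4, HSPA1A at 62.6, HSPA9 at 56.7, HSPA1B at 44.7, HSPA14 at 21.2, HSPA13 at 10.5 and HSPA4L at 5.22. There the libraries of HSPA4 overlapped those of HSPA1A, and those of HSPA1A overlapped those of HSPA9. Both orders rest on the gene lengths behind the deposited FPKM, which were 8391 bases for HSPH1, 9782 for HSPA9 and 5075 for HSPA4.

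The summed FPKM of the 9 genes was 912, 907 and 924 in pristimerin replicates 1, 2 and 3, against 1131, 1129 and 1135 in control replicates 1, 2 and 3. HSPA1A and HSPA1B together made up 3.35%, 3.39% and 3.11% of that sum in pristimerin, against 9.81%, 8.07% and 10.6% in control. As shares of summed CPM, which takes no account of gene length, HSPA1A and HSPA1B held 1.56%, 1.57% and 1.44% in pristimerin, against 4.73%, 3.85% and 5.10% in control. HSPA8 made up 73.6%, 71.8% and 73.9% of the summed FPKM in pristimerin, against 70.2%, 70.3% and 69.3% in control. The summed FPKM and both FPKM shares differed without overlap between the groups, with an exact two-sided permutation p of 0.10 for each, the smallest possible with 3 against 3 libraries. For every FPKM of HSPA1A and HSPA1B there were 22.0, 21.2 and 23.8 FPKM of HSPA8 in pristimerin libraries, against 7.15, 8.71 and 6.56 in control libraries. The size of this ratio and of the FPKM shares rests on the gene lengths behind the deposited FPKM. Those were 4849 bases for HSPA8, 2404 for HSPA1A and 2517 for HSPA1B, while the longest coding GENCODE 29 transcript of HSPA8 had 2463 bases. The 3 HSP110 genes together made up 12.5%, 13.3% and 12.4% in pristimerin and 12.4%, 13.3% and 12.6% in control, overlapping, with an exact two-sided permutation p of 0.70. In bulk RNA, fewer cells expressing a gene and less of its RNA per cell cannot be told apart.

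**Figure D3:**
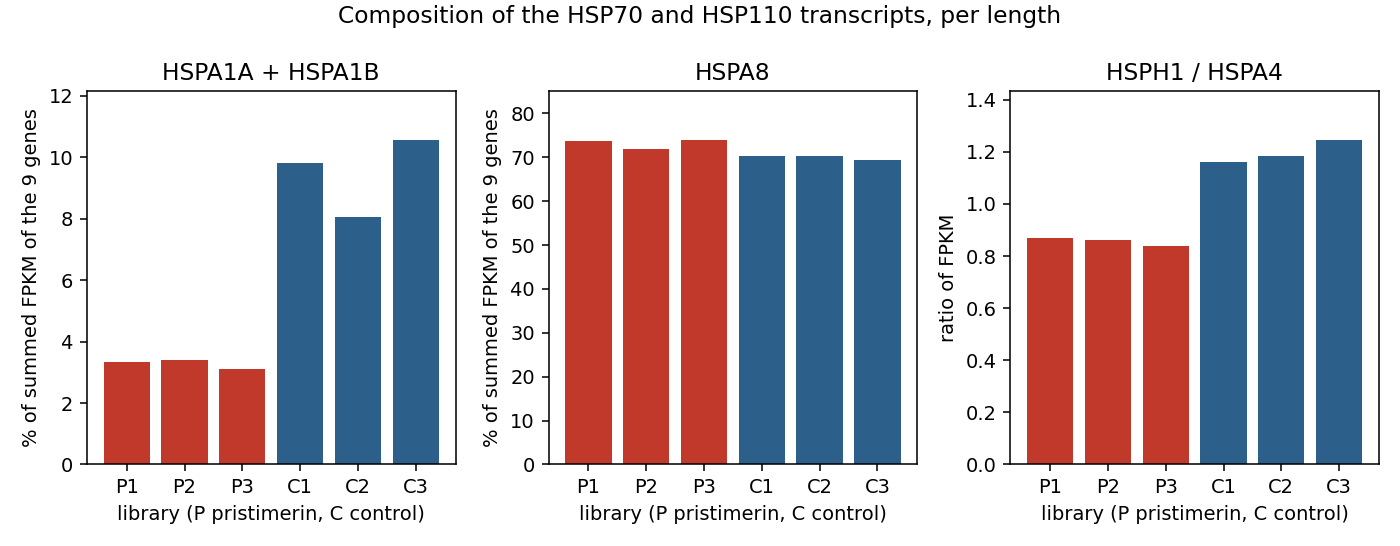
Shares of the summed FPKM of the 9 genes for HSPA1A plus HSPA1B (left) and HSPA8 (middle), and the ratio of HSPH1 to HSPA4 in FPKM (right), with a bar for each library from 0. The 3 pristimerin bars are lower than the 3 control bars on the left (3.11% to 3.39% and 8.07% to 10.6%) and on the right (0.840 to 0.868 and 1.16 to 1.25).

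The other HSP70 genes include HSPA6, which is also stress-inducible. Of the 8 listed, 6 were tested, 4 were lower, none was higher and 2 were not called, with a median log2 fold change of -0.56. Of all tested genes, 15.1% were called lower and 14.5% higher. The fit of genes that averaged 5 CPM or more tested 2 of the list and called 1. HSPA6 measured 0.433, 0.193 and 0.127 CPM in pristimerin, against 3.01, 2.30 and 2.69 CPM in control, a log2 fold change of -3.32 (SE 0.32) at an edgeR adjusted p of 8.25e-07. Its level was low in every library, at 13, 5 and 3 counts in pristimerin and 82, 66 and 52 counts in control, and reads of its near-identical copy HSPA7, not analysed here, could have been counted to it or left out. Without pristimerin replicate 1 the log2 fold change of HSPA6 was -4.00, and with any other library left out it lay between -3.42 and -3.01. On the log2(FPKM + 1) and log2(FPKM + 0.1) scales it was -0.97 and -2.67. The testis-enriched HSPA2 (-0.91, SE 0.15, adjusted p 1.92e-04), HSPA1L (-0.81, SE 0.16, adjusted p 9.56e-04) and HYOU1, an HSP110 relative of the endoplasmic reticulum (-0.31, SE 0.06, adjusted p 6.30e-04), were also lower by edgeR's test. HSPA2 and HSPA1L were low as well, at 2.60 to 5.42 CPM and 2.51 to 5.22 CPM over all libraries. HSPA5, which encodes BiP, the HSP70 of the endoplasmic reticulum, had a log2 fold change of -0.08 (SE 0.05) and an edgeR adjusted p of 0.263, and it was called lower with library totals (-0.16) and on both FPKM scales (-0.15 each). HSPA1L starts 260 bases from HSPA1A and runs the other way.

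Of 23 J-domain partner genes tested, 6 were lower, 4 were higher and 13 were not called, and the median log2 fold change was 0.07. Over all tested genes the shares were 15.1% lower and 14.5% higher. DNAJB1, the J-domain partner of inducible HSP70, measured 176.8, 183.3 and 183.4 CPM in pristimerin, against 250.7, 231.0 and 256.8 CPM in control, with no overlap. Its log2 fold change was -0.44 (SE 0.06), at an edgeR adjusted p of 3.72e-05. DNAJB2, a partner that directs clients to the proteasome, had the lowest fold change of the list at -1.57 (SE 0.10, adjusted p 7.19e-09 in edgeR's test). The auxilin gene DNAJC6 (-1.24, SE 0.40), DNAJB4 (-0.80, SE 0.11) and DNAJA4 (-0.58, SE 0.06) were lower too. Besides DNAJC2, the genes called higher included DNAJA2 and DNAJC9, at log2 fold changes of 0.23 and 0.21, named after their values were seen. DNAJA2 missed the threshold with library totals and on both FPKM scales (0.15 to 0.16). DNAJC9 missed it under 5 alternatives that keep every library (0.13 to 0.18), and without pristimerin replicate 2 (0.17), pristimerin replicate 3 (0.24) or control replicate 3 (0.19). DNAJC6, at 1.19 CPM or less in every library, missed it in DESeq2 (-1.24, adjusted p 0.070) and without pristimerin replicate 1 (-1.07), pristimerin replicate 3 (-1.22), control replicate 2 (-1.06) or control replicate 3 (-1.02).

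The nucleotide exchange factors other than the HSP110 genes had 1 of 9 lower, 5 higher and 3 not called, and a median of 0.22 on the log2 scale. Among all tested genes 15.1% were called lower and 14.5% higher. The lower gene was BAG3, an inducible exchange factor of chaperone-assisted autophagy, at 44.5, 43.7 and 44.4 CPM in pristimerin, against 79.2, 65.5 and 74.1 CPM in control. Its log2 fold change was -0.72 (SE 0.08), at an edgeR adjusted p of 2.13e-06. BAG5, BAG4 and BAG1 were higher at log2 fold changes of 0.29, 0.28 and 0.27. So were GRPEL1 (0.24) and GRPEL2 (0.22), named after their values were seen, which encode the exchange factors of mitochondrial HSPA9. BAG4 and GRPEL2 were near the threshold, with an adjusted p of 0.044 each in edgeR's test. BAG4 missed it without pristimerin replicate 2 (0.16), control replicate 1 (0.20) or control replicate 3 (0.32), and GRPEL2 missed it with any library but control replicate 2 left out (0.18 to 0.25). Both also missed it with upper-quartile scaling, with library totals, among genes of at least 5 CPM and on both FPKM scales.

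Among 15 other cofactors tested, 5 were lower, 3 were higher and 7 were not called, with a median of -0.03 on the log2 scale. The same test called 15.1% of all tested genes lower and 14.5% higher. The lower genes were ST13, a factor that steadies HSP70 with bound ADP (-0.33, SE 0.06), the HSP90 co-chaperone genes FKBP4 (-0.31, SE 0.07) and AHSA1 (-0.28, SE 0.06), and, named after their values were seen, HIKESHI (-0.21), the nuclear import carrier of HSP70, and STIP1 (-0.21), which links HSP70 to HSP90. HIKESHI missed the threshold with any library but control replicate 1 left out (-0.23 to -0.15), with DESeq2 or its size factors and with no low-count filter, and STIP1 without pristimerin replicate 1 (-0.19), pristimerin replicate 3 (-0.20) or control replicate 3 (-0.17). The genes called higher were FKBP5 (0.51, SE 0.07), a glucocorticoid-responsive HSP90 co-chaperone, and, named after their values were seen, TOMM70 (0.26) and TRAP1 (0.25), a mitochondrial import receptor and the mitochondrial HSP90. TOMM70 and TRAP1 missed the threshold on both FPKM scales (0.18 to 0.19 for TOMM70, 0.18 for TRAP1). The matrix chaperonin genes, HSPD1 and HSPE1, were not called, at log2 fold changes of 0.00 (SE 0.06) and -0.09 (SE 0.08).

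Of the 6 HSP90, small heat shock protein and collagen chaperone genes tested, 3 were lower, none was higher and 3 were not called, with a median log2 fold change of -0.30. Over all tested genes 15.1% were called lower and 14.5% higher. SERPINH1, the collagen chaperone, was at -0.97 (SE 0.07, adjusted p 4.37e-08), HSPB1, the small heat shock protein HSP27, at -0.51 (SE 0.08, adjusted p 2.55e-04), and HSP90AA1, the inducible cytosolic HSP90, at -0.46 (SE 0.06, adjusted p 1.09e-05), all in edgeR's test. The constitutive HSP90AB1 was at -0.14 (SE 0.05), at an edgeR adjusted p of 0.052, and passed the threshold under 7 of the 16 alternatives. Among 5 heat shock factor genes and binding partners, edgeR called 0 and DESeq2 called 0, and 1 (HSF4, named after its values were seen) had an unadjusted p under 0.05 in edgeR, and HSF4 was called lower with upper-quartile scaling, with library totals, among genes of at least 5 CPM and with a replicate block. HSF1 measured 134.0, 126.6 and 129.0 CPM in pristimerin, against 148.2, 108.5 and 123.9 CPM in control, overlapping, with a log2 fold change of 0.03 (SE 0.09) and an edgeR adjusted p of 0.804. These are RNA levels and say nothing of the activity of the HSF1 protein.

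**Figure D4:**
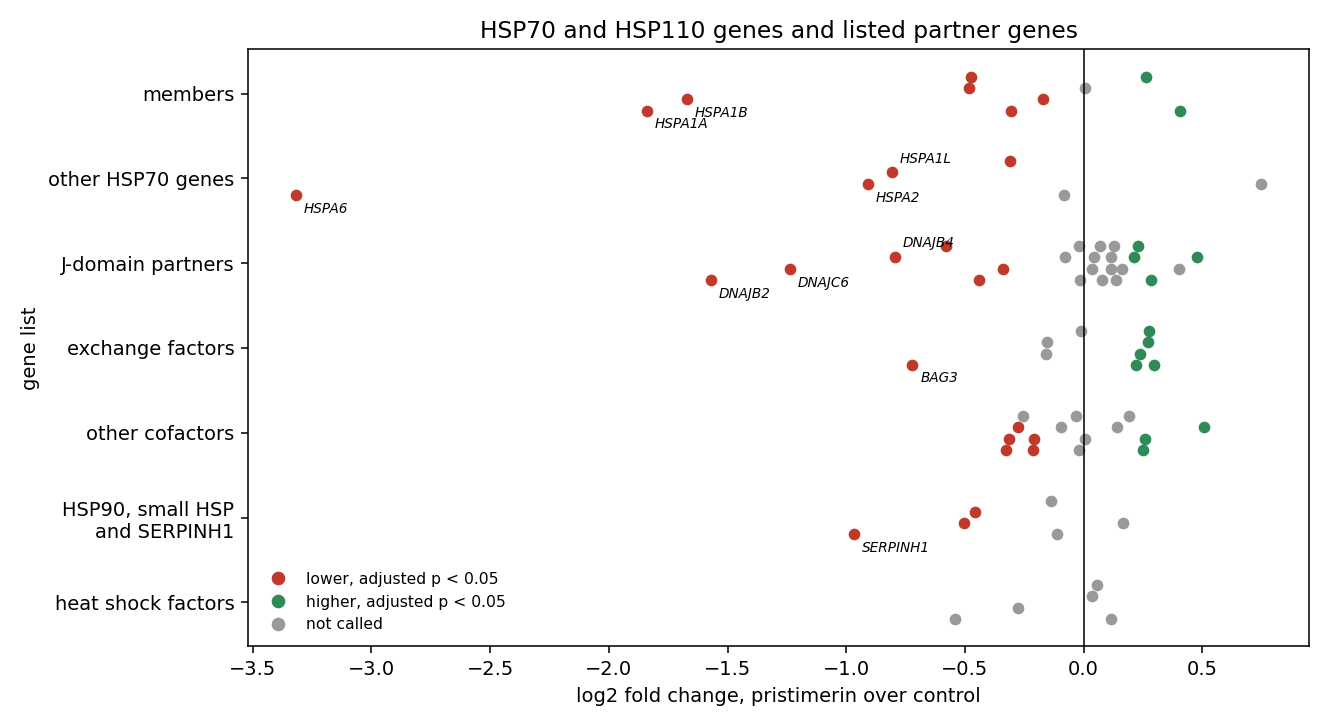
Log2 fold change, pristimerin over control, of the 9 genes (top row) and of every tested gene in the partner lists, coloured by edgeR's call at an adjusted p under 0.05. Genes below -0.7 are named, and the lowest points are HSPA6 at -3.32 and HSPA1A at -1.84, while most of the exchange factors lie between 0.2 and 0.3.

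RefSeq start windows were at hand for 8 of the 9 genes, all but HSPA14. The 3-unit heat shock element letters occurred in HSPA8 alone among them, beginning 230 and 55 bases before the start, and in 0.608% of genes with a window (0.490% of 35116 windows). The 2-unit letters, which also lie within every 3-unit match, occurred in HSPA1A, HSPA1B, HSPA4L, HSPA8 and HSPA9, 5 of the 8, and in at least 1 window of 16.2% of those genes (13.5% of all windows). In HSPA9 they began 4 bases before the start, and in HSPA4L they stood in 1 of 3 windows, 170 bases before it. HSPA4, HSPA13 and HSPH1 had neither form in these windows. The HSPA1A match is also within the HSPA1L window, since both genes share the stretch between their starts. The RefSeq start of HSPA8 lay 1094 bases from the 5′ end of the gene in the count table, that of HSPA13 338 bases and that of HSPA9 274 bases, while those of HSPA1A, HSPA1B, HSPA4 and HSPH1 were at the same base.

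**Figure D5:**
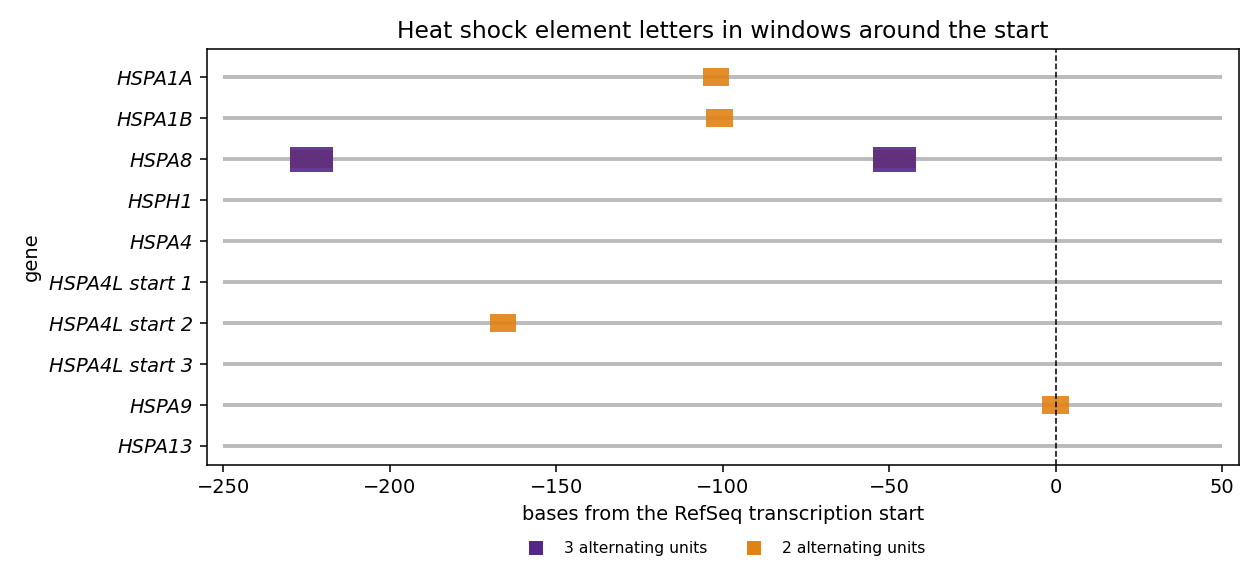
Windows from 250 bases before to 50 after each RefSeq start, drawn as lines, with boxes where the 2-unit and 3-unit heat shock element letters matched on either strand. HSPA8 has the only 3-unit boxes, at -230 and -55, and HSPA1A and HSPA1B have a 2-unit box at -106 and -105.

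For genes with a window, fold changes are given here beside these letters. The search took exact letters only, so units with a differing base were not counted. HSPA8, with both 3-unit matches, was 11.2% lower, while HSPA1A and HSPA1B, with 2 units each, were 72.1% and 68.6% lower. HSPH1, with no match, was 28.1% lower, and HSPA9, with 2 units, was 20.0% higher. Over all tested genes with a window, 17 of the 48 with a 3-unit match were called lower (35.4%) and 2 higher (4.17%), beside 15.1% lower and 16.2% higher of the 10974 without one. For the 2-unit letters the shares were close. Of the 1517 genes with a 2-unit match, 16.2% were called lower and 14.4% higher, beside 15.0% and 16.4% of the 9505 without one. The motif was chosen with earlier results of these data known, and the 48 include the member and partner genes named next. The differences between these shares were not tested. Of the member and listed partner genes with a 3-unit match, HSPA8, HSPA6, SERPINH1, HSP90AA1 and DNAJA1 were called lower, and HSP90AB1 (-0.14), HSPD1 (0.00) and DNAJB6 (-0.02) were not called. DNAJA1 and DNAJB6 are named after their values were seen. A match is a description of letters, and binding was not measured.

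By Pearson's r of log2 CPM over the 6 libraries, the genes most like HSPA1A among 10129 other genes were ING4, CPT1A, LPAR4, PTPRN2 and CBX7, from 0.997 for CBX7 to 1.00 for ING4. Among those most like HSPH1 were ERLIN2, GCLM, SWAP70 and DST, all at 0.999 or 1.00. Among the 9 genes, HSPA1A had an r of 0.996 with HSPA1B, 0.968 with HSPH1, 0.947 with HSPA8 and -0.980 with HSPA9. All these correlations share the same libraries and follow the step between the groups, so that they describe which libraries were high or low and no more.

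The libraries carried markers of the labelled line. All 12 listed myeloid genes were in the table and their summed level was 2224 to 2239 CPM in pristimerin and 2096 to 2302 CPM in control, most of it LYZ, while CD68 and CD86 were under 1 CPM in every library and CD14 reached 1.05 CPM at most. Of 16 markers of other cell types, 9 were in the table, and their sum of 190.3 to 199.6 CPM in pristimerin and 196.6 to 200.1 CPM in control was nearly all PECAM1, which monocytic cells also express, with EPCAM at 0 in 5 of the 6 libraries.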

How the data were processed

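The RNA, per the labels' protocols, was isolated in TRIzol, selected for poly(A), made into dUTP strand-specific libraries and read as 150-base pairs. Per the submitters' processing notes the build is hg38. The aligner, the counter and its strand setting were not given in the sources used here. The authors deposited unnormalised counts, and FPKM values proportional to the deposited count over gene length and library total. From the counts, edgeR 4.0.16 (R 4.3.3) was run with filterByExpr (minimum count 10, minimum total 15), TMM scaling (factors 0.970 to 1.03) and the quasi-likelihood test with group as the only term. P-values were adjusted by Benjamini-Hochberg over 15305 genes, with 10031 left out. The SE is the absolute log2 fold change over the root of F. Totals of 19057219 to 30568593 counts put 3 counts at 0.0981 to 0.157 CPM. Shares were compared by exact two-sided permutation (scipy 1.17.1). The edgeR, DESeq2, limma-voom and log2(FPKM + 1) fits were tried on simulated counts. Alternatives were 3 other scalings, other filters, DESeq2 1.42.0, limma-voom, limma 3.58.1 on log2(FPKM + 1) or + 0.1 (mean FPKM of at least 0.1), a replicate block and leaving out each library. The members, lists and motifs were chosen with earlier results of these data known. Named were all members, up to 4 called genes per list with the largest changes, 8 listed anchor genes (HSF1, DNAJB1, DNAJC2, BAG3, HSPD1, HSPE1, HSP90AA1 and HSP90AB1), and the 5 genes most like HSPA1A and HSPH1. Other names are marked as chosen after their values were seen, and MSANTD7 and HSPA5 were added the same way. Some genes that these rules select are left out of the text. Promoter sequences are from RefSeq, GRCh38.p14.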

Additional observations from a re-analysis of the deposited data

How the results depend on the processing

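HSPA1A, HSPA1B, HSPH1, HSPA4L, HSPA9 and HSPA14 kept their direction and stayed past the threshold under all 16 alternatives. HSPA4, never called, was at -0.054 with upper-quartile scaling, -0.066 with library totals, -0.028 among genes of at least 5 CPM, -0.064 with log2(FPKM + 1) and -0.064 with log2(FPKM + 0.1), and from -0.013 to 0.033 with a library left out. In the same order HSPD1 was at -0.056, -0.067, -0.030, -0.066 and -0.066, and from -0.021 to 0.032. HSF1 was at -0.026 with upper-quartile scaling, -0.037 with library totals, -0.025 with log2(FPKM + 1), -0.025 with log2(FPKM + 0.1), and from -0.068 to 0.165 with a library left out. Over the 9 genes the count called lower was 5 in DESeq2 and in both FPKM fits, and 4 to 5 with a library left out; the count called higher was 2 throughout. Over all genes 2313 were lower and 2216 higher (48.9% of calls higher). Higher calls numbered 1523 (33.3%) with upper-quartile scaling, 1389 (30.1%) with library totals, 1081 (30.9%) with log2(FPKM + 1), 1084 (31.0%) with log2(FPKM + 0.1) and 2393 (58.8%) in DESeq2, and lower calls ranged from 1534 to 2329 with a library left out. The share of HSPA1A and HSPA1B differed by -6.20 percentage points in FPKM and by -3.04 in CPM. For MSANTD7, HSPA5 and the partner genes called or fixed by name, 508 fits kept the call, 56 lost it, 10 gained it (HSP90AB1 in 7, HSPA5 in 3) and 12 turned sign; other uncalled partner genes, HSF4 among them, are not in this tally. With each gene's group mean subtracted from its log2 CPM, same-numbered libraries from opposite groups correlated at 0.098, 0.137 and 0.037. Not all were above 0.1, so the numbers are not taken to pair the libraries. Each library correlated best with the library of its own number in the other group. With the replicate number as a block, 3150 genes were higher and 2948 lower, and 6 and 2 of the 9 genes were lower and higher. The causes were not tested. The depth limits HSPA6 (3 to 13 counts in pristimerin).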
